A study of Mus musculus with 9 samples.

Results

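The late-numbered miRNAs of the embryonic mouse kidney are those with names from miR-1000 to miR-6895. miRBase, the miRNA registry, gives numbers roughly in order of registration, so these names are mostly ones found by deep sequencing after the abundant and conserved miRNAs had been named. Members were the mature names in this number range with at least 30 reads summed over the 9 libraries, without 10 numbers (miR-1188, miR-1193, miR-1197, miR-1224, miR-1839, miR-1981, miR-3070, miR-3071, miR-3072 and miR-3544). Of 301 such names with any read, 201 reached the minimum and 100 did not, against 1607 mouse miRNA names with reads in all. Members were thus chosen by their summed read count, and their levels are given as a description, without a test. Just inside the minimum were miR-6539 with 30 reads, and miR-5626-3p and miR-5624-3p with 31 each. Just outside were miR-1957a with 29 reads, and miR-3112-5p and miR-5618-5p with 28 each.

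The libraries hold small RNA of whole mouse kidneys taken at embryonic day 16.5. There were 3 wild-type control libraries, 3 libraries with a DROSHA-E1147K transgene and 3 DROSHA knockout libraries, called control, transgene and knockout libraries here. The study asks how losing DROSHA, or the E1147K mutation found in Wilms tumor, a childhood kidney cancer, affects the developing kidney. Its design text speaks of different mouse lines, and the labels give neither the lines nor the promoter or cells that drive the transgene or the deletion. Drosha mRNA is not measured here, so the genotypes were not checked by it. Whether a group's 3 libraries stem from different animals is not stated in the labels, so a p-value here reflects only how these libraries spread, and that spread may be technical. In whole kidneys, fewer cells of a type and less RNA per cell cannot be told apart.

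Most miRNAs are cut from hairpins in long primary transcripts by the Microprocessor, in which the RNase III enzyme DROSHA pairs with DGCR8, and are then cut by DICER into a 5p and a 3p strand, one of which is usually kept by an Argonaute protein. Bases 2 to 8 of the mature strand, the seed, pair with target mRNAs. Some small RNAs reach Argonaute by other routes. Mirtrons are short introns released by splicing, and fragments of tRNAs and small nucleolar RNAs can also be loaded, so that neither needs the Microprocessor.

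Of the 201 members, 177 had a mature entry in the RefSeq tables for GRCm38.p6 (the mm10 build), 12 had a hairpin entry only and 12 had none. The sequences below are those on which the levels and comparisons turn, from RefSeq, 5′ to 3′, with the seed in capitals. The first set holds abundant members.
miR-1983: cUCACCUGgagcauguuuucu
miR-1198-5p: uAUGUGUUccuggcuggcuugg
miR-3068-5p: uUGGAGUUcaugcaaguucuaacc
miR-3099-3p: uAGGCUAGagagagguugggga
miR-1191a: cAGUCUUAcuauguagcccua
miR-1843b-5p: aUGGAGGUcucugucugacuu
miR-1843a-5p: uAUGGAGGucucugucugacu
miR-1306-3p: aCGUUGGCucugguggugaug
The second set holds the members with the smallest p-values in the group comparisons.
miR-3067-5p: aGUUCUCAggcccgcuguggugu
miR-3968: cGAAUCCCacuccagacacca
miR-1968-5p: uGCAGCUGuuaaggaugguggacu
miR-3547-3p: uGAGCACCaccccucucucag
miR-3086-3p: cCCAAUGAgccuacagucuaag
miR-3110-5p: uUCUGCCUccccugaaggcuc
miR-5621-3p: uGGGCCCUccagaccucaugc
miR-3473d: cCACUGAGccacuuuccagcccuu
miR-5121: aGCUUGUGaugagacaucucc
miR-3059-5p: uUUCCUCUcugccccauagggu
miR-6516-5p: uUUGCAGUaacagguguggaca
The third set holds 2 members that lie opposite an older miRNA on the other DNA strand, each followed by that miRNA. Capitals here mark the bases that are reverse complements of each other, 20 in the first pair and 21 in the second.
miR-3074-5p: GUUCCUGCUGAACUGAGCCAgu
miR-24-3p: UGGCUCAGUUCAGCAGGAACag
miR-3065-5p: uCAACAAAAUCACUGAUGCUGG
miR-338-3p: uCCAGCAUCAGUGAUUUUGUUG

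Among the members with a mature entry, the median length was 22 bases, as for the 560 names numbered below 1000 (let-7 included) with an entry and at least 30 reads. Their base composition was different. The median GC content was 54.55% in the 177 members and 47.62% in the older names, and 62 members (35.0%) against 70 older names (12.5%) had at least 60% GC. The extreme was miR-5126, in which every base is G or C.
miR-5126: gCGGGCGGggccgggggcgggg
U was the first base in 40.1% of members and 36.8% of older names. Few seeds were shared. miR-3064-5p and miR-3085-3p had the same seed.
miR-3064-5p: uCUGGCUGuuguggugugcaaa
miR-3085-3p: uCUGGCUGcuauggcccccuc
For 7 members the seed matched that of an older name, among them miR-1983 with miR-412-3p, miR-3473d with miR-674-5p, miR-3102-5p with miR-702-5p and miR-1943-5p with miR-149-3p. miR-1843a-5p and miR-1843b-5p start 1 base apart in an otherwise shared stretch, so their seeds differ. No member's sequence was identical to, or contained in, another mature sequence in the table.

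Libraries held 24350500 to 34896599 reads of known miRNAs, and 1 read was worth 0.0308 to 0.0417 CPM (counts per 1000000 miRNA reads, scaled by edgeR's TMM factors). These levels, and the fold changes below, are relative to the other miRNAs of a library. A loss common to all miRNAs would not show in them. Replicates differed by more than read sampling in all 9 within-group pairs. Levels of cell type markers also varied between libraries and, for some lists, between groups. The summed level of 6 muscle miRNAs was 221 to 1254 CPM in controls, 468 to 1641 in transgene libraries and 458 to 10513 in knockouts, with the highest value in knockout 3. The corresponding ranges were 21451 to 52754, 27376 to 80414 and 71842 to 113619 CPM for 5 erythroid miRNAs. For 7 miRNAs of kidney tubules, a part of the labelled tissue, they were 36180 to 41452, 22918 to 34061 and 11858 to 29886 CPM. They were 1180 to 12196, 4925 to 21598 and 1107 to 11179 CPM for 3 pancreas and liver miRNAs, 2042 to 3454, 1912 to 3381 and 2116 to 2278 CPM for 5 neural miRNAs, and 481 to 883, 566 to 1297 and 560 to 1420 CPM for 5 leukocyte miRNAs. Every knockout was above every control for the erythroid sum. For the tubule sum, every transgene and knockout library was below every control. The groups overlapped for the other lists. All of these markers had reads in each of the 9 libraries, and their part in the results that follow was not tested. The markers are miRNAs themselves, so their levels need not follow cell numbers.

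The members were scarce. Their median mean level was 0.920 CPM, against 30.2 CPM for the 684 older names with at least 30 reads. Of the 201 members, 98 reached a mean of 1 CPM, 22 reached 10 CPM and 5 reached 100 CPM, against 591, 431 and 257 of the 684 older names. They took 954571 reads in all, and these were concentrated. miR-1983 alone held 51.67% of the member reads, the top 2 held 66.18%, the top 5 held 82.82% and the top 20 held 92.04%. By number, the 63 members from miR-1000 to miR-1999 held 72.8% of the reads, the 89 from miR-3000 to miR-3999 held 20.6%, the 35 from miR-5000 to miR-5999 held 5.25% and the 13 from miR-6000 up held 1.22%. miR-2137 was the only member between miR-2000 and miR-2999, and there was none between miR-4000 and miR-4999. A single library had reads of 196 to 201 of the members.

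**Figure D1:**
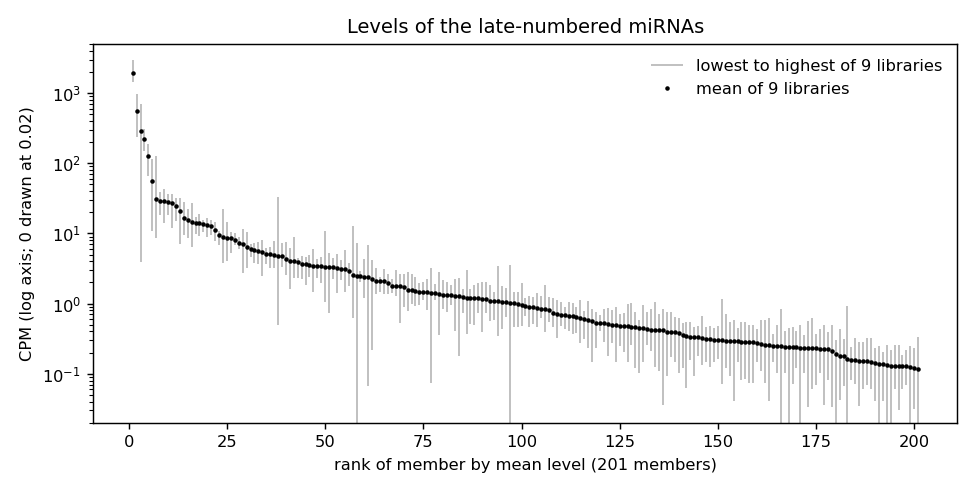
Level of each of the 201 members in CPM on a log axis, ordered by the mean of the 9 libraries (points); grey lines run from the lowest to the highest library, with 0 drawn at 0.02. A few members stand above 100 CPM, about 1 in 2 lie below 1 CPM, and some lines span several orders of magnitude.

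miR-1983, the most abundant member, is annotated at chr13:21896930-21896950 on the minus strand, where its hairpin contains the tRNA gene n-TItat14 (chr13:21896938-21897031). Of its 21 bases, 13 lie inside the coordinates of that isoleucine tRNA gene and 8 outside. It was present at 2256, 1698 and 1416 CPM in the controls, 2277, 1500 and 1567 in the transgene libraries and 2335, 2993 and 1535 in the knockouts. The groups overlapped, and its log2 fold change between knockouts and controls was 0.35 (SE 0.30, adjusted p = 0.509) by edgeR's quasi-likelihood test with Benjamini-Hochberg adjustment.

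miR-1198-5p, from an intron of Gripap1, was next, with 609, 957 and 233 CPM in the controls, 633, 576 and 465 in the transgene libraries and 464, 578 and 439 in the knockouts. Control 3 was the lowest and control 2 the highest of the 9 libraries, so the controls alone spanned the range of the other groups. miR-3068-5p gave 199, 171 and 294 CPM in the controls, 219.9, 148 and 180.0 in the transgene libraries and 264, 307 and 222 in the knockouts, and the groups again overlapped. It overlaps Alkbh1, a nucleic acid demethylase gene, and Gm29362, in an exon of a transcript of either or both. GENCODE annotates its hairpin as a small nucleolar RNA.

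Below these, miR-5099 had a mean of 148 ± 37.1 CPM in controls, 127 ± 11.7 in transgene libraries and 110.4 ± 40.3 in knockouts (SD, n = 3 each, as for all means here). miR-3099-3p, from an intron of the deubiquitinase gene Usp29, was steady in 7 libraries at 47.6 to 70.3 CPM. In knockout 2 it was at 10.9 CPM and in knockout 3 at 114 CPM, the lowest and the highest values. The remaining members among the 15 most abundant in controls had control means from 16.4 to 33.9 CPM. They were miR-1191a, miR-1843b-5p, miR-3105-5p (an intron of Shank2, a postsynaptic scaffold gene), miR-5113 (an exon of Tnrc6b, an Argonaute partner gene), miR-1306-3p, miR-1251-5p (an intron of the noncoding gene Rmst), miR-1843a-5p, miR-1247-5p and miR-3057-5p (an exon of Apba3).

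**Figure D2:**
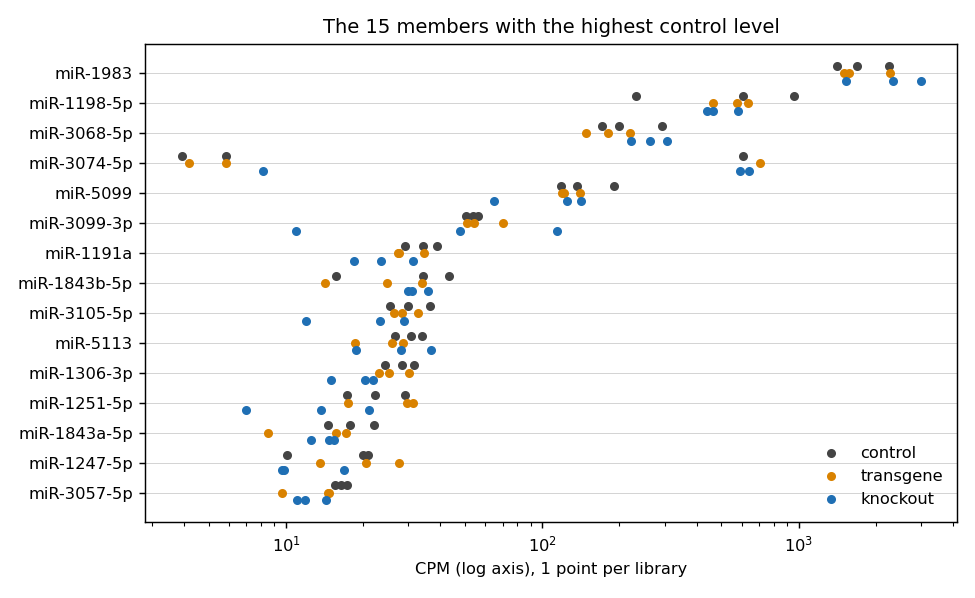
Level in CPM (log axis) of the 15 members with the highest mean control level, 1 point per library, with control, transgene and knockout libraries in grey, orange and blue on separate lines of each row. Points of the 3 groups intermingle for most rows, and miR-3074-5p falls into a cluster near 5 CPM and a cluster near 600 CPM, each with libraries of all 3 groups.

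Together the members took 0.352%, 0.378% and 0.256% of the miRNA reads in the controls, 0.420%, 0.335% and 0.334% in the transgene libraries and 0.496%, 0.463% and 0.373% in the knockouts. The mean was 0.328% ± 0.0643 in controls, 0.363% ± 0.0493 in transgene libraries and 0.444% ± 0.0635 in knockouts, and the knockouts overlapped the controls through knockout 3 and control 2. The knockout mean was 0.116 percentage points above the control mean (exact permutation test, two-sided, p = 0.2) and 0.0812 points above the transgene mean (exact permutation p = 0.2), and the transgene mean was 0.0344 points above the control mean (exact permutation p = 0.6). The smallest p that 3 against 3 libraries allow is 0.1. miR-1983 and miR-3074-5p made up most of the knockout difference, which was 0.0377 points without miR-1983 and 0.0114 points without both. With all counted reads in place of miRNA reads as denominator, the knockout mean was 0.0699 points above the control mean (exact permutation p = 0.3).

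RefSeq coordinates were set on the GENCODE vM21 annotation. On the strand of a gene, 100 members lay in an intron, 52 had a hairpin that overlapped an exon and 3 filled a whole intron. Another 20 were intergenic, 14 lay on the opposite strand of a gene and 12 had no locus in the table. An exon named in this text is one of any annotated transcript, coding or not, that the hairpin overlaps in part or in whole. The whole-intron check asked for both hairpin ends within 5 bases of the intron ends. A hairpin that fills an intron and reaches further into the exons was thus counted as exonic. For some members the hairpin entry spans only the mature sequence, so the whole-intron check could not find them. Another sorting of all members used coordinates alone, without a search for similar sequences. It found 14 whose hairpin overlaps an annotated tRNA, small nucleolar RNA or small Cajal body RNA gene. For 13 of them the mature sequence lies wholly inside that gene, on its strand, and miR-1983, partly outside its tRNA gene as given above, is the exception. These are RNAs that decode codons or guide the chemical modification of ribosomal and spliceosomal RNA. Beside miR-1983 and miR-3068-5p these members include both arms of miR-1843a (within Scarna3b), miR-1843b (within Scarna3a), miR-3069 (within Scarna13) and miR-3084 (within Snora19 and Gm23658), and single arms such as miR-1291 (within Snora34), miR-5121 (within Snord33, in Rpl13a), miR-3535 and miR-6516-5p. Which small RNA such reads came from cannot be read from the counts, since the sources used here do not state how a read that matches several annotations was counted.

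Several members differed manyfold between libraries of the same group. The widest spread was that of miR-3074-5p. It had 186, 14561 and 107 reads in the controls, 19544, 190 and 122 in the transgene libraries and 18970, 200 and 16388 in the knockouts. Control 2, transgene 1, knockout 1 and knockout 3 thus stood at 593 to 708 CPM and the other 5 libraries at 3.94 to 8.14 CPM, a ratio of 179.9 between highest and lowest, with every group on both sides. Its name covers hairpins at chr13:63301199-63301283, in an intron of the DNA repair gene Fancc, and at chr8:84208825-84208907. The opposite arms of those hairpins did not share the pattern. miR-3074-1-3p had 307 to 475 reads and miR-3074-2-3p 229 to 545 reads in all 9 libraries. On the other DNA strand at both loci lies miR-24-3p, a far more abundant older miRNA with 71167 to 575297 reads per library, whose sequence is the reverse complement of miR-3074-5p over 20 bases as shown above. The sources used here do not state whether the counting used strand, so reads of the pair are uncertain.

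miR-1306-5p was split in a similar way. Its hairpin lies in a coding exon of Dgcr8 (chr16:18284239-18284317, minus strand), the gene for DROSHA's partner, whose mRNA is known to be cut by the Microprocessor itself.
miR-1306-5p: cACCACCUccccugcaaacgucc
miR-1306-3p: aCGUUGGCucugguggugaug
miR-1306-5p had 10, 7 and 201 reads in the controls, 10, 209 and 4 in the transgene libraries and 5, 0 and 199 in the knockouts. Control 3, transgene 2 and knockout 3 had 199 to 209 reads and no other library had more than 10. These are also the 3 libraries with the most reads of the liver miRNA miR-122-5p, 174703 to 619723 against 10889 to 61369 in the other 6. The sum of the 3 pancreas and liver miRNAs was highest in them too. Transgene 3, with 4 miR-1306-5p reads, was close to knockout 3 in that sum (10125 against 11179 CPM). Only 700 CPM of it were miR-122-5p in transgene 3, against 6323 in knockout 3. The part of liver RNA in the pattern was not tested. The other arm, miR-1306-3p, had 901, 760 and 659 reads in the controls, 836, 747 and 730 in the transgene libraries and 601, 539 and 413 in the knockouts.

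miR-3065-5p, which lies opposite miR-338-3p at chr11:120014767-120014853, on the other strand of Aatk, had 154, 55 and 65 reads in the controls, 5, 87 and 65 in the transgene libraries and 2, 4 and 190 in the knockouts. Transgene 1, knockout 1 and knockout 2 had 2 to 5 reads and the other 6 libraries at least 55. miR-338-3p had 66 to 250 reads with no such drop. Single libraries set the level of other members. miR-2137, from an intron of Zfp185, had 884 reads in control 3 and 12 to 76 elsewhere. miR-6540-5p, from an intron of Gap43, the gene of a protein of growing axons, was at 126 CPM in knockout 3 and at 8.68 to 37.5 CPM in the others, and miR-6540-3p was also highest there, with 295 reads against 29 to 97. Knockout 3 had the most reads of the neuronal miR-124-3p as well, 25269 against 667 to 21293, but the fewest of the neural miR-9-5p, 18455 against 41992 to 79739, and the sum of the 5 neural miRNAs was within the range of the other libraries. The part of nerve tissue in these values was not tested.

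**Figure D3:**
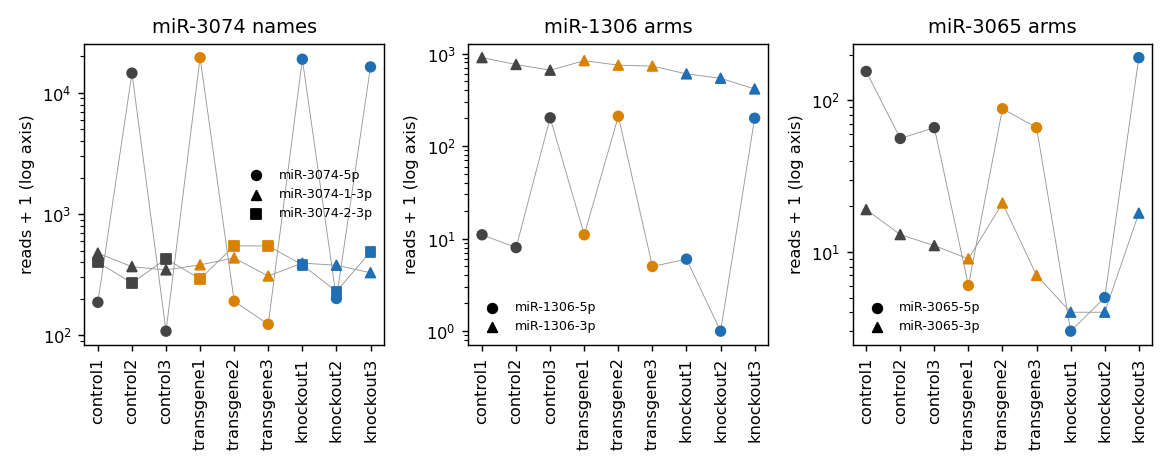
Reads per library plus 1 (log axis) for the miR-3074 names, the miR-1306 arms and the miR-3065 arms, with libraries on the x axis, groups by colour and names by symbol. The miR-3074-5p circles jump between 107 and 19544 reads while the triangles and squares of the other miR-3074 names stay between 229 and 545.

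A gap of at least 4-fold between 2 neighbouring libraries, when the 9 are ordered by level, was present in 9 of the 201 members (4.48%). Among 951 other names with at least 30 reads it was present in 54 (5.68%), so such gaps were not more frequent in members. Of the 9, miR-3074-5p, miR-3099-3p, miR-2137, miR-1306-5p, miR-3547-3p and miR-3065-5p were described above or are described below. The other 3 were miR-3067-5p, miR-1199-5p, with 6 reads in knockout 3 and 32 to 112 elsewhere, and miR-1190, with 27 reads in knockout 1, 14 in control 3 and at most 1 elsewhere. miR-1249-3p and miR-1251-5p, chosen like miR-3074-5p for their wide range at a mean of at least 10 CPM, spanned 6.30 to 27.4 CPM and 6.95 to 31.4 CPM without such a gap.

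The 3 groups were then compared with edgeR's quasi-likelihood test over all 955 miRNA names that passed its filter on low counts. Of the 201 members, 155 passed, and the 46 that did not had 30 to 80 reads summed over the libraries. The filter asks for enough reads in at least 3 libraries, so a scarce member could pass through the group where it was high. With 3 libraries a group, simulated 2-fold changes between knockouts and controls were called in 11.4% of cases and 4-fold changes in 70.1%. The simulation gave all names a common dispersion and changed 200 of 955 names. No separate rate was taken for the members. These rates therefore cannot be read as the power for the scarce members in the real data.

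The member that stood apart was miR-3067-5p, which was nearly absent from the knockouts and had the smallest p-value of all 955 names in both comparisons of the knockouts. It comes from an intron of Smoc1, which encodes a secreted matrix protein that inhibits BMP signalling. Its hairpin lies at chr12:81166151-81166234 on the plus strand and is shown with the mature arm in capitals.
mir-3067 hairpin: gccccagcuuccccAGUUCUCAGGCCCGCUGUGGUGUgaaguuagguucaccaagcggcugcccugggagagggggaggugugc
There were 17, 13 and 24 reads in the controls, 99, 92 and 25 in the transgene libraries and 0, 1 and 1 in the knockouts, or 0.534, 0.542 and 0.883 CPM in the controls, 3.59, 2.83 and 0.860 in the transgene libraries and 0, 0.0407 and 0.0362 in the knockouts. The knockouts were thus below every other library, with at most 1 read each, and transgene libraries 1 and 2 were above all controls while transgene 3 was not. The opposite arm, miR-3067-3p, had 14 reads in all, 13 of them in transgene libraries 1 and 2, and 0 in the knockouts.

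Between knockout and transgene libraries, miR-3067-5p was the only name of the 955 that edgeR called (0.105%). Its log2 fold change was -6.39 (SE 0.81, adjusted p = 0.0285) by the quasi-likelihood test. Pooled reads, corrected for library size, were 99.1 times higher in the transgene group than in the knockouts (95% counting interval 27.1 to 824). Between knockouts and controls the fitted log2 fold change was -4.50 (SE 0.83, adjusted p = 0.108) by edgeR, and the ratio of pooled reads was 26.6 in favour of the controls (95% counting interval 7.02 to 225). Transgene over control it was 3.73 (2.75 to 5.12). These intervals cover counting error only, and with 2 reads in the knockouts the fitted values depend on the prior count. The knockout against transgene call was lost in 10 of 18 alternative analyses, whose adjusted p-values ran from 4.86e-05 to 0.284 by edgeR or DESeq2. The losses included the fits without control 1, control 2, control 3, transgene 1, transgene 2, knockout 1, knockout 2 or knockout 3, and the fit of the 6 libraries alone. The log2 fold change stayed between -6.82 and -5.86 in all 18. Against controls, the fit without knockout 1 brought it past the threshold (edgeR adjusted p = 0.0467).

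Between transgene and control kidneys, the smallest p among the members was that of miR-3968, from chr11:115447961-115448060 on the opposite strand of Trim80. Its level was 2.70, 3.71 and 3.75 CPM in the controls, 5.36, 10.6 and 8.56 in the transgene libraries and 11.1, 6.47 and 11.7 in the knockouts. Each transgene and each knockout library was above each control. The log2 fold change was 1.27 (SE 0.36, adjusted p = 0.501) between transgene and control libraries by edgeR. The next 4 members by p also missed the threshold by edgeR, with adjusted p-values of 0.529. miR-3067-5p had a log2 fold change of 1.89, miR-5621-3p (an intron of Tmem94) of 0.98, miR-3110-5p (opposite Tmem255a) of 1.18 and miR-3473d (an intron of the RNA helicase gene Ddx19b) of -0.53. miR-3473d was among the most even members. It measured 15.6, 15.3 and 15.4 CPM in the controls, 11.8, 9.39 and 10.9 in the transgene libraries and 11.7, 12.01 and 11.5 in the knockouts, with all transgene and knockout libraries below all controls.

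In that comparison, none of the 155 members passed an adjusted p of 0.05, and the share over all 955 names was 0.0%. DESeq2 called 0 of the 197 members that it tested, against 0.126% of the 1584 names tested. At an unadjusted p under 0.05 there were 7 members (4.52%), against 8.8% of all names. The transgene and control libraries did not overlap for 24 members (15.5%), against 24.0% of all names. A log2 fold change above 0 was found for 62 members (40.0%) and 46.7% of all names. The median log2 fold change of the members was -0.11 and that of all names was -0.04.

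Between knockout and control kidneys, miR-3968 came second among the members by p, with a log2 fold change of 1.53 (SE 0.36, adjusted p = 0.108) by edgeR. miR-1968-5p, from an intron of Grtp1, gave 4.87, 5.58 and 6.26 CPM in the controls, 4.53, 3.48 and 4.09 in the transgene libraries and 3.27, 2.77 and 1.59 in the knockouts. On this scale all knockouts were below all transgene libraries, which were below all controls. Without the TMM factors, transgene 3 had a larger share of miRNA reads (119 of 25834937) than control 1 (155 of 34896599). The log2 fold change of miR-1968-5p between knockouts and controls was -1.13 (SE 0.32, adjusted p = 0.108) by edgeR. miR-3086-3p, from an intron of Hspa12a, had only 7 to 18 reads a library. Its log2 fold change was -1.12 (edgeR adjusted p = 0.108), with no overlap of the knockouts with the controls. It passed the filter on low counts only through the controls, where it was high, so the lack of overlap is a description and no support.

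miR-3547-3p is 1 of 3 members whose hairpin fills an intron from end to end, here an intron of 88 bases in Baiap3 (chr17:25245551-25245638), a gene of vesicle release. The mature sequence shown above ends at the last base of the intron, in the AG of the splice site. It was at 0.660, 0.625 and 1.03 CPM in the controls, 1.23, 2.03 and 1.62 in the transgene libraries and 1.99, 0.977 and 12.6 in the knockouts. Knockout 3 held 347 of its 641 reads and knockout 2 lay below the highest control, so the groups overlapped. The log2 fold change was 2.74 (SE 0.86, adjusted p = 0.122) between knockouts and controls by edgeR, and 1.03 without knockout 3. The other 2 such members are the arms of miR-1982, which fill an intron of 74 bases in Oaz1, the ornithine decarboxylase antizyme gene (chr10:80828797-80828870).
miR-1982-3p: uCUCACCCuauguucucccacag
miR-1982-3p measured 2.73, 3.21 and 3.79 CPM in the controls, 2.50, 2.59 and 2.13 in the transgene libraries and 4.12, 4.15 and 3.11 in the knockouts, with all knockouts above all transgene libraries and an overlap with the controls. miR-1982-5p had 1 to 6 reads a library and was not tested.

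**Figure D4:**
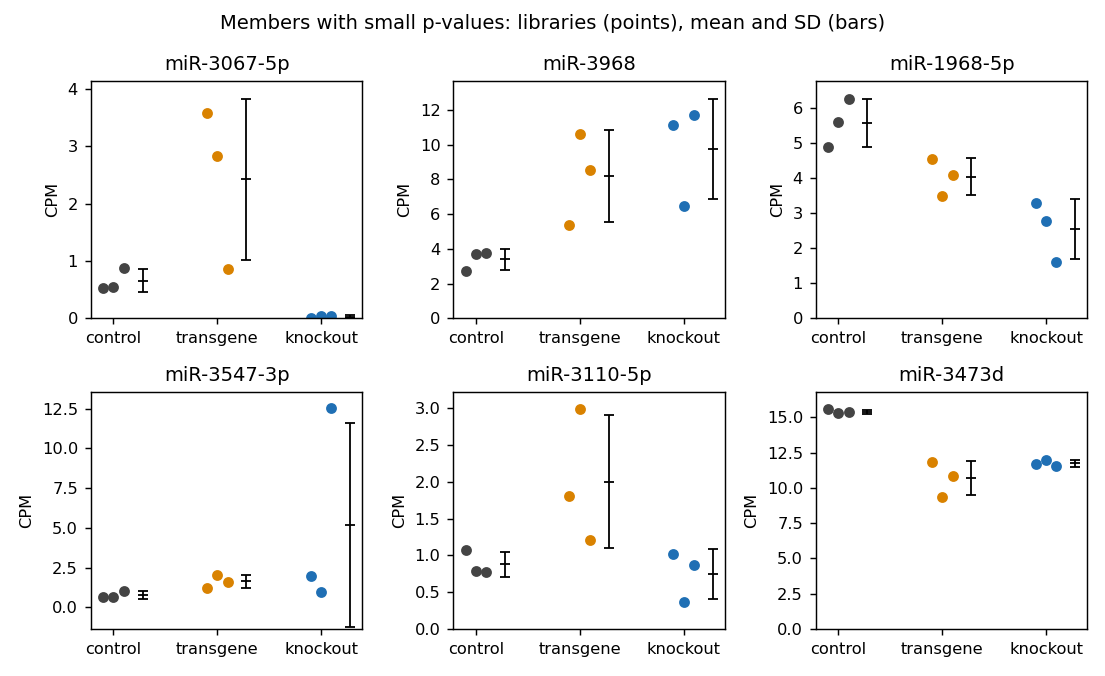
Level in CPM of 6 members with small p-values in a group comparison, 1 point per library, with the mean and SD of the 3 libraries of each group at its right. miR-3067-5p is near 0 in all knockouts, the miR-3968 points of both DROSHA groups lie above the controls, and 1 library sets the knockout mean of miR-3547-3p.

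In the comparison of knockouts with controls, edgeR again called none of the 155 members, against 0.0% of all 955 names. At an unadjusted p under 0.05 there were 22 members (14.2%), 12 higher and 10 lower in knockouts, against 25.7% of all names (15.6% higher and 10.1% lower). Groups did not overlap for 34 members (21.9%), 15 higher and 19 lower, against 28.5% of all names (12.9% higher and 15.6% lower). A log2 fold change above 0 was found for 72 members (46.5%) and 48.9% of all names. The median log2 fold change was -0.07 over the members and -0.03 over all names. DESeq2 called 5 of the 103 members that it gave an adjusted p (4.85%), against 14.0% of the 776 names with one (9.15% higher and 4.9% lower). They were miR-3067-5p, miR-1968-5p and miR-5128, which fell by 4.72, 1.12 and 1.26 on the log2 scale (DESeq2 adjusted p = 0.00661, 0.0287 and 0.0459), and miR-3968 and miR-3547-3p, which rose by 1.53 and 2.72 (DESeq2 adjusted p = 0.00661 and 0.0167).

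Between knockout and transgene libraries the members called were 1 of 155 (0.645%), which is miR-3067-5p. DESeq2 called the same 1 of 197 members, against 0.189% of the 1584 names tested. At an unadjusted p under 0.05 there were 10 members (6.45%), against 7.02% of all names. Groups did not overlap for 23 members (14.8%), 10 higher and 13 lower in knockouts, against 10.4% of all names (4.4% higher and 5.97% lower). A log2 fold change above 0 was found for 78 members (50.3%) and 53.1% of all names. The median log2 fold change was 0.00 over the members and 0.05 over all names. After miR-3067-5p the smallest p-values were those of miR-5121, miR-3110-5p, miR-3059-5p (an intron of Mgat4c) and miR-6516-5p (within a small Cajal body RNA gene in an exon of Snhg20), with log2 fold changes of 1.57, -1.41, 1.34 and 1.17 and edgeR adjusted p-values of 0.643 to 0.652. miR-5121, which lies within a small nucleolar RNA of the ribosomal protein gene Rpl13a, had 9, 3 and 12 reads in the controls, 6, 6 and 10 in the transgene libraries and 31, 13 and 18 in the knockouts. The 3 knockouts were above all 6 other libraries. miR-5121 passed the filter on low counts only through the knockouts, where it was high, so this order is a description and no support. The comparisons with the controls share those 3 libraries, so their folds are not independent.

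**Figure D5:**
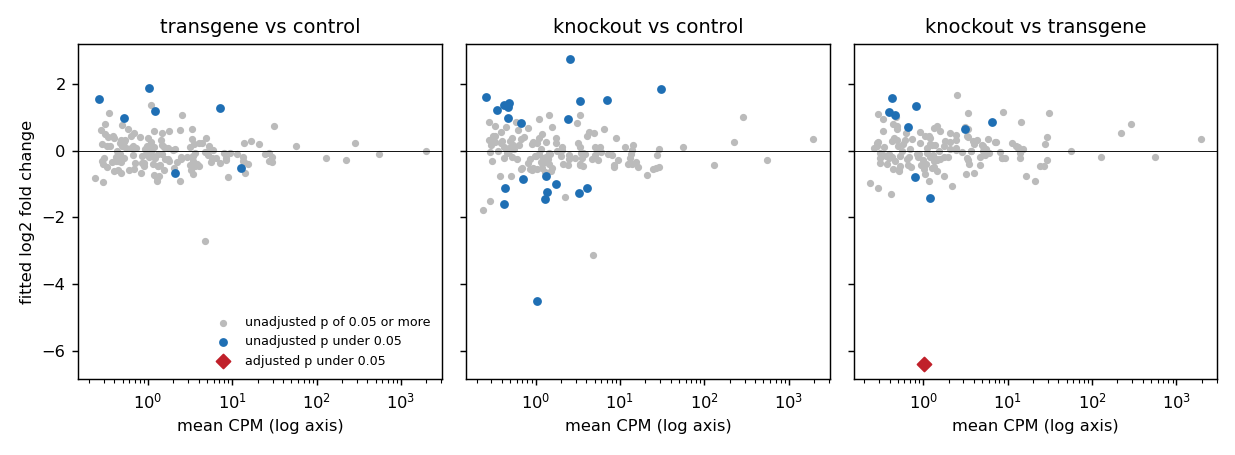
Fitted log2 fold change (y axis) against mean CPM (log x axis) for the 155 tested members in the 3 comparisons, with members past an unadjusted p of 0.05 in blue and past an adjusted p of 0.05 in red. Only miR-3067-5p, between knockout and transgene libraries, is red, and most points of every panel lie between -1 and 1.

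By origin, the 13 tested members whose hairpin overlaps a tRNA, small nucleolar or small Cajal body RNA gene (miR-1983 included) had a median log2 fold change of 0.05 between knockouts and controls, with 8 above 0 and 5 below, against -0.03 and 48.9% above 0 over all 955 names. Between transgene and control libraries it was -0.28, with 2 above 0 and 11 below, against -0.04 and 46.7% above 0 over all names. Between knockouts and transgene libraries it was 0.36, with 9 above and 4 below, against 0.05 and 53.1% above 0 over all names. None of the 13 was called by edgeR. At an unadjusted p under 0.05 there were 0 of the 13 between transgene and control libraries against 8.8% of all names, 1 between knockouts and controls against 25.7%, and 2 between knockouts and transgene libraries against 7.02%. The 71 tested intronic members had a median of -0.01 between knockouts and controls (34 above 0), the 47 exonic ones -0.08 (20 above 0), the 14 intergenic ones -0.22 (5 above 0) and the 12 on the opposite strand of a gene -0.05 (6 above 0).

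The Dgcr8 exon hairpins were represented by miR-1306, since miR-3618, the other hairpin of that mRNA, had 4 reads for its 3p and 2 for its 5p arm. miR-1306-3p was at 28.3, 31.7 and 24.2 CPM in the controls and 30.3, 23.0 and 25.1 in the transgene libraries. In the knockouts it was at 20.3, 21.9 and 14.9 CPM, on this scale below every control and transgene library. That order depends on the TMM factors, which were 0.882 to 0.926 in controls and 1.01 to 1.11 in knockouts. Without them, knockout 1 had a slightly larger share of miRNA reads (601 of 26588280) than control 3 (659 of 29363390). The log2 fold change of miR-1306-3p between knockouts and controls was -0.56 (SE 0.25, adjusted p = 0.200) by edgeR, which missed the threshold. The Htr2c intron hairpins lie in a serotonin receptor gene. miR-1298-5p was at 5.78, 6.21 and 5.004 CPM in the controls, 7.07, 3.23 and 4.27 in the transgene libraries and 6.25, 10.3 and 10.03 in the knockouts, and knockout 1 was only just above the highest control.
miR-1298-5p: uUCAUUCGgcuguccagaugua
Its log2 fold change was 0.64 (SE 0.35, adjusted p = 0.296) between knockouts and controls by edgeR. miR-1264-5p, of the same cluster, had 13, 6 and 4 reads in the controls, 21, 10 and 10 in the transgene libraries and 15, 22 and 22 in the knockouts, with all knockouts above all controls, and miR-1912 had 7 reads in all. miR-1247, in an exon of Dio3os next to the thyroid hormone deiodinase gene Dio3 (chr12:110278048-110278129), was read mainly from its 5p arm.
miR-1247-5p: aCCCGUCCcguucguccccgga
miR-1247-5p had 10.1, 21.0 and 19.9 CPM in the controls, 20.5, 13.6 and 27.7 in the transgene libraries and 9.86, 9.61 and 16.9 in the knockouts, and the groups overlapped. miR-1247-3p spanned 0.817 to 2.24 CPM.

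Of 6 members of the miR-3470 and miR-3473 names, a list drawn up for B1 repeats, 5 were tested and none was called, with 1 fold change above 0 and 4 below in both comparisons with the controls. Their median log2 fold change was -0.20 in transgene and -0.39 in knockout libraries against controls. Over all 955 names the medians were -0.04 and -0.03, with 46.7% and 48.9% of names above 0. The most abundant were miR-3473d, miR-3473b with 1.48 to 5.74 CPM, miR-3470b with 0.507 to 1.62 CPM and miR-3470a with 0.724 to 1.96 CPM. Of the members with a seed shared with an older name, miR-3102-5p spanned 1.85 to 4.66 CPM and miR-1943-5p (an intron of Tmem184b) 0.628 to 1.29 CPM. miR-3102-5p overlaps an exon of an Arhgef17 transcript, but no annotated coding or untranslated part. Its hairpin entry spans only the mature sequence, so whether the hairpin fills an intron was not tested. miR-5126, the sequence of G and C alone, lies opposite Dner, which encodes a Notch ligand, and spanned 3.84 to 22.3 CPM, with both extremes in knockouts.

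For 87 hairpins both arms had a name in the number range and at least 30 reads together. The 5p arm was the more abundant in all 9 libraries for 31 of them, the 3p arm for 30, and neither in all libraries for 26. miR-1198 gave 59 to 160 reads from its 3p arm against 6334 to 22975 from its 5p arm. miR-3099 was the reverse, with 1 to 5 reads from 5p and 268 to 3140 from 3p. miR-1843a was near balance, with 248 to 556 reads from 5p and 286 to 453 from 3p, while the related miR-1843b had 375 to 1180 from 5p and 2 to 6 from 3p. The per-library median of log2 of 5p over 3p reads (1 added to each) was -0.02 ± 0.17 in controls, 0.01 ± 0.21 in transgene libraries and -0.09 ± 0.61 in knockouts. Knockout 2 was the lowest of the 9 at -0.58 and knockout 3 the highest at 0.58. The differences of -0.07 between knockouts and controls (exact permutation p = 0.9), 0.02 between transgene and control libraries (exact permutation p = 1) and -0.09 between knockouts and transgene libraries (exact permutation p = 0.8) were smaller than that spread, and other settings turned their signs.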

How the data were processed

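Small RNA reads of 9 whole-kidney libraries, 3 per group by title and genotype label, had been counted by the authors. CASAVA 1.8, Bowtie2 and the build mm10 are named in the submitters' processing notes, without role or order. Each deposited count is a whole number of reads per small RNA name. The deposited column called TPM is, per the file headers, the count per 1000000 of the file's total, which is an RPM, and was not tested. Counts under the mature and hairpin class of 1 name were added (9 of the member reads were of the hairpin class).

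All 955 known miRNAs passing filterByExpr were fitted with edgeR 4.0.16 in R 4.3.3 (TMM factors 0.882 to 1.13, group as a factor, 9 libraries, common biological coefficient of variation 0.489). The factors were 0.882 to 0.926 in controls, 0.911 to 1.13 in transgene libraries and 1.01 to 1.11 in knockouts. The order of libraries with close levels can therefore depend on them. The quasi-likelihood F test was used with Benjamini-Hochberg adjustment over all 955 and a threshold of 0.05. DESeq2 1.42.0 was an alternative. Other alternatives changed scaling, filter, libraries fitted, a replicate block and read class. The arm ratio and member share were tested by exact two-sided permutation. The test on simulated counts for knockouts against controls used 955 names, 200 of them changed, in 10 draws. It recovered 97.7% of 8-fold changes and made 49 false calls among 7246 unchanged names. All names were given 1 common dispersion, and no separate rate was taken for the members, so the rates need not hold for them.

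Members and lists were chosen with earlier results of these data known. The names given are, per comparison, the members past the threshold (the 5 smallest p-values where fewer than 5 pass), the 15 most abundant in controls, the small lists whole, 4 of each other list, the 5 widest ranges at a mean of at least 10 CPM, and those around the minimum. Others (miR-2137, miR-1199-5p, miR-1190, miR-5128, miR-1291, miR-3535, miR-3069 and miR-3084) were chosen after their values were seen or from the annotation. Reads carry no molecular identifiers, so intervals cover counting error only.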

Additional observations from a re-analysis of the deposited data

Results flagged for a closer look

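miR-3067-5p differed between the effects of the 2 DROSHA changes. Its log2 fold change against controls was 1.89 in transgene and -4.50 in knockout libraries, and the difference of -6.39, which is the edgeR comparison of knockout with transgene libraries, passed the threshold (adjusted p = 0.0285). All 3 knockouts were below all 3 transgene libraries. The call rests on 2 knockout reads and was lost in 10 of 18 alternatives.

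Reads were also counted to an Rfam family for mir-1306, a class of the files that the comparisons do not use. There were 1627 such reads in the 9 libraries, with 252, 199 and 153 in controls, 176, 211 and 221 in transgene libraries and 146, 158 and 111 in knockouts. A count of 0 allows up to 3 reads per library. They stand beside the 6186 reads of miR-1306-3p and the 645 of miR-1306-5p, and the sources used here do not state which part of the Dgcr8 exon they came from.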

How the results depend on the processing

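No alternative gave a member call between transgene and control libraries (18 alternatives). Between knockouts and controls, DESeq2 gave 5 member calls and the fits without 1 library gave 0 to 1, the call being miR-3067-5p without knockout 1, where 48 names in all were called. The cause was not tested. Between knockouts and transgene libraries, the fit of only the 6 libraries gave 0 calls and the fits without 1 library gave 0 to 1, with the call kept only without transgene 3. No replicate pairing was taken from the labels, since correlations of same-numbered libraries, on deviations from group means, ran from -0.302 to 0.102. The replicate block gave 0 calls in each of the 3 comparisons. Of 270 alternative values of 15 named fold changes, none reversed, 10 lost the threshold (all miR-3067-5p between knockouts and transgene libraries) and 5 gained it.

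The difference in member share between transgene and control libraries ran from -0.00202 to 0.0590 points without 1 library, negative without control 3. The shares without miR-1983, and without both miR-1983 and miR-3074-5p, were added after the data were seen. The arm ratio difference between transgene and control libraries was -0.00934 with a pseudocount of 10 and ran from -0.0848 to 0.130 without 1 library. Between knockouts and controls it was 0.139 for hairpins with at least 300 reads and ran from -0.408 to 0.177 without 1 library, and between knockouts and transgene libraries from -0.432 to 0.153. The cause of these reversals was not tested. Depth limits members under about 1 CPM, where a library holds few reads.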
